A study of Mus musculus with 2 samples.

Results

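Mir128-1 and Mir128-2 are the mouse genes of miR-128. Mir128-1 (ENSMUSG00000065520.2) lies in an intron of R3hdm1 and Mir128-2 (ENSMUSG00000065441.2) in an intron of Arpp21. They were taken by symbol and Ensembl identifier and are 2 of the 2202 microRNA genes counted. The counts come from microRNA sequencing, with inserts under 30 nt, of gastrocnemius, the large calf muscle, of male B6CASTF1/J mice aged 2 months. This strain is an F1 hybrid between C57BL/6J and CAST/EiJ, a wild-derived strain. The animals carry no treatment or engineered allele per the labels, so there is 1 group with 2 libraries, biological replicates 2 and 1. The labels number the 2 mice separately and give both the same donor entry, so the spread below is that between these libraries.

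MicroRNAs are cut from hairpin transcripts, and either arm of the hairpin, 5p or 3p, can be loaded into the silencing complex that represses messenger RNAs. Bases 2 to 8 of the loaded strand, the seed, pair with the target. miR-128 is best known from brain, where it restrains neuronal excitability in mice, and in cultured mouse myoblasts it is known to repress Irs1, a relay of insulin signalling. Both genes are intronic: R3hdm1 encodes a protein with an R3H nucleic-acid-binding domain, and Arpp21 an RNA-binding phosphoprotein found in brain.

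The sequences decide which reads can be given to a gene, so the hairpins are shown first. Capitals mark the longest stretch identical in both, read 5′ to 3′ from RefSeq on GRCm38.p6, the assembly also called mm10. Both genes had an entry.
Mir128-1: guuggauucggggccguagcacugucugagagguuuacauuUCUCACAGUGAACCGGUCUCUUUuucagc
Mir128-2: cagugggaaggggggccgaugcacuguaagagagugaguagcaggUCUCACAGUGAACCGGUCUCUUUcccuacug
The first is chr1:128202361-128202430 on the plus strand, 70 bases, and the second chr9:112118636-112118711 on the minus strand, 76 bases. The identical stretch spans 23 bases. It holds the whole 3p arm of 21 bases, begins 2 bases before that arm and ends with its last base. The first base after the arm differs between the genes.

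The mature strands are given with their seeds in capitals, because the arms differ in what a read can tell.
miR-128-3p, both genes: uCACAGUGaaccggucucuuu
miR-128-1-5p, Mir128-1: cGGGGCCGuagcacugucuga
miR-128-2-5p, Mir128-2: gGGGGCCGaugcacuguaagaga
The 3p strand is 1 sequence made from both loci. The 5p strands match at 16 of the first 21 positions counted from their 5′ ends and have the same seed. No other of the 1679 mature names in the table carries either seed at bases 2 to 8.

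**Figure D1:**
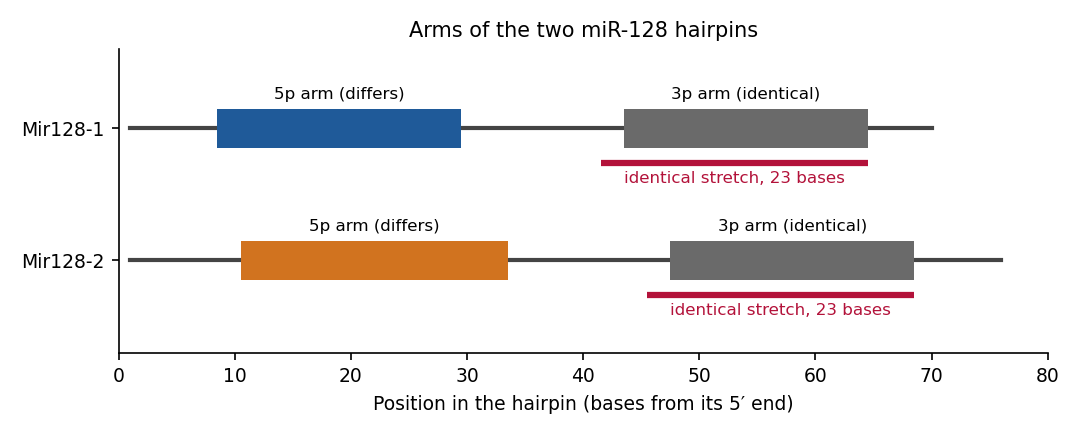
Positions of the 5p and 3p arms in the Mir128-1 (top) and Mir128-2 (bottom) hairpins, in bases from the 5′ end. The red line marks the stretch of 23 bases identical in both, which covers the whole 3p arm and none of the 5p arm.

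A read of the annotated 3p strand therefore matches chromosomes 1 and 9 equally, and the deposited tables list reads that match several places apart from the gene counts. Of the windows of 20 bases in Mir128-1, 47 of 51 occur in no other microRNA gene, as do 53 of 57 in Mir128-2. All the shared windows lie in the partner gene, and no other GENCODE M21 transcript held one. A 3p read matches only 1 of the loci if it reaches past the end of the identical stretch, or more than 2 bases before the arm. After the arm the hairpin goes on with uu in Mir128-1 and with cc in Mir128-2. Whether the bases of a read past the arm were copied from the locus it matches was not tested. The gene counts can thus hold reads of the 5p arm, of the loop or of such an extended 3p arm. The tables do not separate the arms, and the values below are no measure of miR-128-3p, the better known strand. Copies elsewhere in the genome were not analysed here.

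Both genes were detected, which here means at least 2 CPM in each library (counts per 1000000 counts assigned to microRNA genes). Mir128-1 was the higher in both libraries. It had 3042 counts in replicate 2, or 1339 CPM with an exact Clopper-Pearson 95% interval of 1292 to 1387. In replicate 1 it had 655 counts, or 1025 CPM (948 to 1107). Its mean was 1182 ± 222 CPM (SD, n = 2), or 0.134% of the assigned counts in replicate 2 and 0.103% in replicate 1. The counting intervals of the libraries did not overlap.

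Mir128-2 had 430 counts in replicate 2, or 189 CPM (172 to 208). In replicate 1 it had 64 counts, or 100 CPM (77.2 to 128). Its mean was 145 ± 63.0 CPM (SD, n = 2), and replicate 2 was again the higher, with intervals that did not overlap. Neither gene had a count on the opposite strand in either library. Their counts without regard to strand were the same as on their own strand, and no gene but the host overlaps either. CPM is compared between genes without division by length, since a read covers a mature strand and not a stretch of a long transcript.

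**Figure D2:**
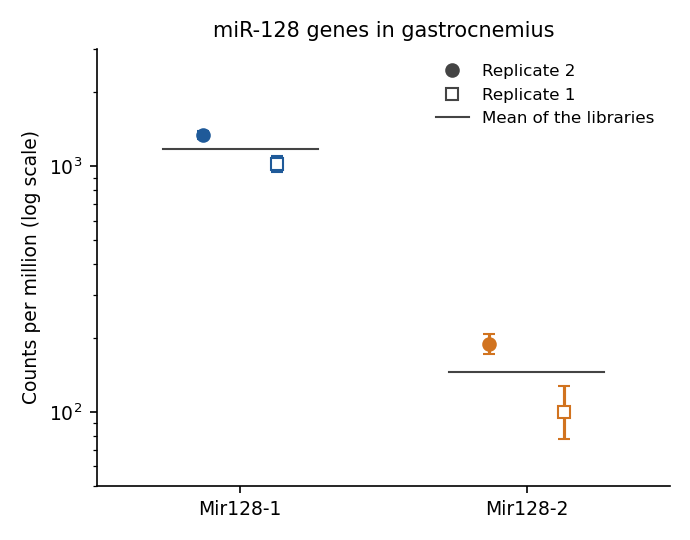
Level of Mir128-1 and Mir128-2 in CPM on a log axis, for replicate 2 (filled circles) and replicate 1 (open squares), with exact 95% counting intervals and the mean of the libraries as a line. Mir128-1, at 1339 and 1025, lies above Mir128-2, at 189 and 100, and replicate 2 is higher for both.

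These values rest on unequal depth. Replicate 2 held 2272132 assigned counts and replicate 1 held 638779, so that 1 count is worth 0.440 and 1.57 CPM. Reads matching several places made up 74.4% of all reads in replicate 2 and 75.2% in replicate 1. Intervals cover counting error only, since PCR copies carry no molecular identifier and cannot be told from separate molecules. Beside the tissue label, 9 microRNA genes of skeletal muscle were read. The list was chosen with earlier results of these data known, so it is no independent check of the label. All 9 were detected, against 303 of all 2202 genes. They summed to 52158 CPM in replicate 2 and 22884 in replicate 1, of which Mir206 gave 48078 and 20325 CPM. A stretch of at least 20 bases recurs in a second gene for 6 of the 9. Among those 6, Mir1a-1, Mir133a-1, Mir133a-2 and Mir133b had mean levels of only 7.12 to 16.9 CPM. The others of the 6 were higher, Mir1a-2 at 265 CPM and Mir486 at 1011 CPM. All these values leave out reads that match several places, and what that does to each level was not tested.

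Within a library, depth cancels and the loci can be set against each other directly. In replicate 2, Mir128-1 had 7.07 times the counts of Mir128-2 (exact 95% interval 6.39 to 7.84). In replicate 1 it had 10.2 times (7.91 to 13.4). The mean was 8.65 ± 2.23 (SD, n = 2). Mir128-1, in R3hdm1, thus held 87.6% of the counts of the pair in replicate 2 (86.5 to 88.7%) and 91.1% in replicate 1 (88.8 to 93.1%).

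The odds of a count coming from Mir128-1 rather than Mir128-2 were 0.691 times as high in replicate 2 as in replicate 1 (95% interval 0.516 to 0.914, Fisher's exact test, two-sided p = 0.00758). That test sets 2 libraries against counting error and is no test of the mice. Since the 3p reads that match both loci are outside these counts, the ratio describes reads that match only 1 of the loci. It does not describe the output of the loci. How often each hairpin yields a 5p strand or an extended 3p strand was not analysed here. Together the genes reached 1528 CPM in replicate 2 and 1126 CPM in replicate 1 (1327 ± 285, SD, n = 2).

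The hosts place the hairpins differently. R3hdm1 spans chr1:128103301-128237736 on the plus strand. Mir128-1 lies in intron 19 of the 26 of transcript R3hdm1-201, an intron of 14107 bases, 5263 bases after the upstream exon and 8774 before the next. Arpp21 spans chr9:112065091-112235938 on the minus strand. In Arpp21-201, Mir128-2 lies in intron 17 of 18, which has 51873 bases, only 471 bases after the upstream exon and 51326 before the next. In the shorter transcript Arpp21-210 the intron has 2415 bases.

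Neither hairpin belongs to a cluster. No other counted microRNA gene lies within 10 kb of either, and the nearest is 3296209 bases from Mir128-1 and 370905 bases from Mir128-2. The host messenger RNAs were not measured in this assay. Folded with RNAfold, the Mir128-1 hairpin had a minimum free energy of -29.3 kcal/mol and 26 base pairs, and the Mir128-2 hairpin -37.3 kcal/mol and 28 base pairs. The arms lie 14 bases apart in both.

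Mir128-1 ranked 57 of 2202 by mean CPM and Mir128-2 ranked 127. By single library Mir128-1 ranked 51 in replicate 2 and 58 in replicate 1, and Mir128-2 ranked 115 and 147. Of the 303 genes detected, the other genes below Mir128-1 made up 81.5% and those below Mir128-2 58.3%. Mir128-1 was placed 21 among the 733 genes that lie in introns of coding genes on the same strand, and Mir128-2 was placed 45. Of those 733, 106 were detected, and the shares of the other detected intronic genes below each member, 81.0% and 58.1%, were near those over all detected genes.

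**Figure D3:**
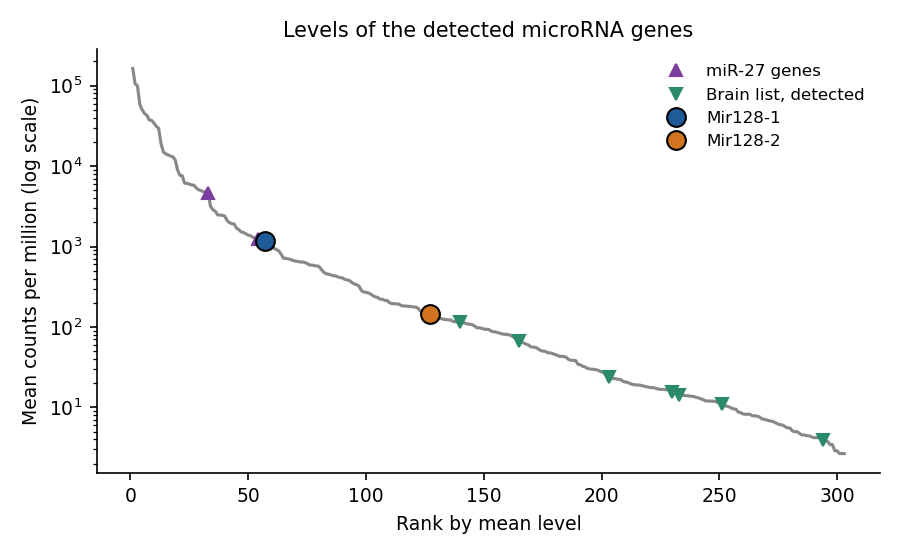
Mean level of the 303 detected microRNA genes in CPM (log axis) against their rank. Mir128-1 sits at rank 57 beside Mir27a, and Mir128-2 at rank 127, above all 7 detected genes of the brain list (green triangles).

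Because miR-128 is best known from neurons, its genes were set beside 21 microRNA genes known from brain. Of these, 7 were detected, while 6 were at 0 in both tables, among them all 3 genes of miR-124, the defining neuronal microRNA. Over all 2202 genes, 303 were detected and 1653 were at 0 in both tables. By share, the list was thus detected more often, and at 0 less often, than all genes. The list summed to 276 CPM in replicate 2 and 244 in replicate 1 (260 ± 22.1, SD, n = 2), less than Mir128-1 alone in each library. Mir132, an activity-induced microRNA of neurons, led it with 114 ± 35.2 CPM (SD, n = 2). Mir7-1 followed at 66.2 ± 21.5, and Mir138-1, known in rat neurons to limit the size of dendritic spines, at 24.1 ± 3.57 CPM. Mir137 had 15.7 ± 8.92 CPM, Mir138-2 had 14.2 ± 2.35, Mir129-1 had 11.0 ± 0.0314 and Mir219a-1, known from oligodendrocytes, 3.99 ± 1.21 CPM.

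Mir7-1, Mir138-1, Mir138-2, Mir129-1 and Mir219a-1 share 20 bases or more with another gene, as the miR-128 genes do. Their values, and the zeros of genes with near-identical copies such as those of miR-124, leave out reads that match several places. Mir137 and Mir132 share none. The part of nerve or other cell types in the level of the miR-128 genes was not tested. In bulk tissue, fewer cells of a type and less RNA per cell cannot be told apart.

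The miR-128-3p seed also occurs in the miR-27 strands, shifted by 1 base, at bases 3 to 9. Capitals mark it below, and the miR-27 genes are shown because they are the only mature names in the table with that placement.
miR-128-3p: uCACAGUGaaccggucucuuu
miR-27a-3p: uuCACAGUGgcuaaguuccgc
miR-27b-3p: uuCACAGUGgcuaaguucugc
miR-27a-3p is read from chr8:84208727-84208747 and miR-27b-3p from chr13:63300760-63300780, both on the plus strand. Mir128-1 and Mir27a were at similar levels, with 1339 CPM for Mir128-1 and 1205 for Mir27a in replicate 2, and 1025 and 1306 CPM in replicate 1, so that their order differed between libraries. Mir27b was higher than both miR-128 genes, at 4674 ± 318 CPM (SD, n = 2). Mir27a and Mir27b have 20 or more bases in common, so reads that match both are outside their counts. Their 3p strands differ near the 3′ end, however, so that a full-length read can match only 1 of these genes. A full-length read of miR-128-3p matches both of its genes and is left out. The levels of the miR-27 and miR-128 genes are thus no comparison of the 3p strands. miR-216a-3p holds the seed at bases 1 to 7, and its gene Mir216a was at 0 in both tables, where 3 counts would be 1.32 CPM (replicate 2) or 4.70 CPM (replicate 1).

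Both miR-128 genes were higher in replicate 2 than in replicate 1. Mir128-1 was 1.31-fold higher (exact 95% interval of counting error 1.20 to 1.42) and Mir128-2 was 1.89-fold higher (1.45 to 2.50). Both passed an exact two-sided binomial test of the counts against the library totals with Benjamini-Hochberg adjustment over 311 genes (adjusted p = 1.50e-09 for Mir128-1 and 2.11e-06 for Mir128-2). That test called 126 of the 311 genes, or 40.5%. Of all tested genes, 23.2% were called higher in replicate 2 and 17.4% lower, or 72 and 54 genes, and with TMM scaling 57 and 64 genes. Among genes with a mean of 100 CPM or more, 66.4% were called, so a call is common above that level. That class takes in genes far higher than Mir128-2. Of the genes nearest to Mir128-2 in level, given below, Mir132 and Mir154 were called. Mir483, Mirlet7a-2 and Mir1193 were not.

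The size of the difference also lay within that of other genes. The median absolute log2 ratio was 0.39 over the tested genes and 0.30 over the 146 with a mean of 100 CPM or more. On the same scale Mir128-1 stood at 0.38, with 160 tested genes further from 0, of which 54 were among those 146. It was thus just under the median of all tested genes and above that of the 146. Mir128-2 stood at 0.91, with 54 genes further from 0, of which 9 were among the 146 genes with a mean of 100 CPM or more. With the spread between the libraries counted as noise, in the exact test of edgeR with 1 dispersion for all genes, neither gene passed (unadjusted p = 0.503 for Mir128-1 and 0.130 for Mir128-2, adjusted p of 1 for both). That test called 2 of 311 genes, and 20 had an unadjusted p under 0.05. Its dispersion comes from the same 2 libraries that it compares, so missing its threshold says nothing on whether the miR-128 genes differ.

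**Figure D4:**
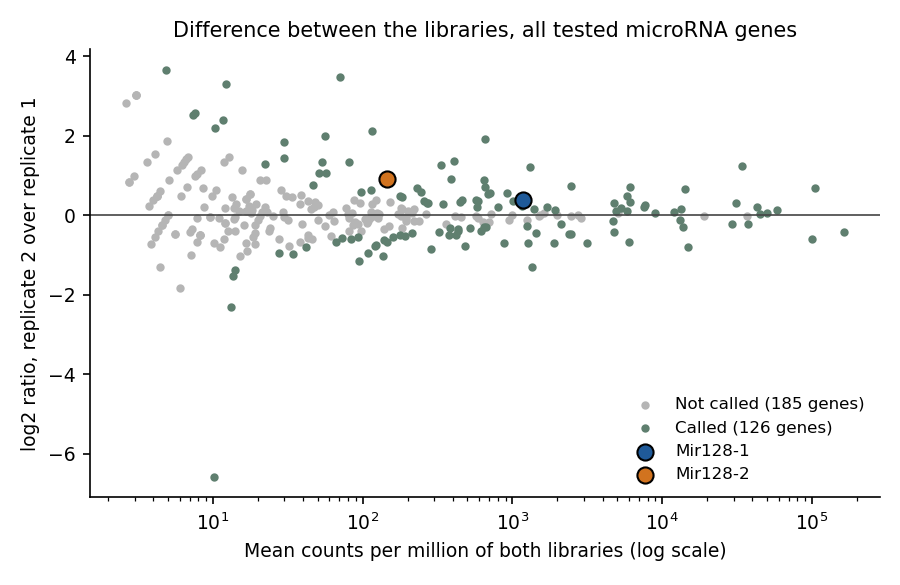
Log2 ratio of replicate 2 over replicate 1 against mean CPM (log axis) for the 311 tested genes, with the 126 called by the exact binomial test in green. Mir128-1 (blue), at 0.38, and Mir128-2 (orange), at 0.91, lie above 0 among many called genes.

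The genes most like each member were those closest in log2(CPM + 1) over the 2 libraries, a distance over 2 points. For Mir128-1 they were Mir155 (1189 CPM), Mir150 (1164 CPM), Mir486 (1011 CPM), Mir16-1 (1386 CPM) and Mir27a (1256 CPM), in mean CPM. Mir155 and Mir150 are known from leukocytes, and Mir486, in an intron of Ank1, from muscle and red cells. The closest, Mir155, had 1314 CPM in replicate 2 and 1065 CPM in replicate 1, a distance of 0.0605.

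For Mir128-2 the closest were Mir483, in an intron of the growth factor gene Igf2 (151 CPM), Mirlet7a-2 (123 CPM), Mir132 (114 CPM), Mir154 (177 CPM) and Mir1193 (116 CPM). Their distances were 0.436 to 0.573, larger than any for Mir128-1, and each had a log2 ratio between the libraries nearer to 0 than that of Mir128-2. Of the 10 genes, Mir486, Mir16-1, Mir27a and Mirlet7a-2 share 20 bases or more with another gene. With pseudocounts of 0.5 and 5 the same 5 genes came out for each member.

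miR-128 is one of many microRNAs encoded at 2 places with 1 identical arm. Among the genes matched to RefSeq, 24 pairs had 1 identical mature arm and 1 that differed, and 15 of them had at least 10 counts in each library. The 15 are not all separate. Mirlet7c-2 is paired with Mirlet7c-1 by its 5p arm and again with Mirlet7a-1 by its 3p arm. By mean CPM the miR-128 pair ranked 4 of the 24. Its uneven split was common: the higher gene of a pair gave a median of 82.9% of counts in replicate 2 and 84.4% in replicate 1, against 87.6% and 91.1% for Mir128-1. In each library 5 of the 15 pairs were more uneven. The share of Mir128-1 was 3.48 percentage points lower in replicate 2 than in replicate 1, which was the median shift of the 15 pairs in size.

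Of the 6 pairs with most counts, Mirlet7f-2 gave 97.6% of its pair with Mirlet7f-1 in replicate 2 and 97.2% in replicate 1. Mir196a-2 gave 99.4% and 99.6% over Mir196a-1 in the same order. The pair of Mir16-1, near the miR-128 pair in the length shared (23 bases in both), was split less unevenly, with 82.9% from Mir16-1 in replicate 2 and 84.4% in replicate 1. Mir92-1 gave 96.8% and 97.0% over Mir92-2, and Mirlet7c-2 70.0% and 73.1% over Mirlet7c-1. In 12 of the 15 pairs, miR-128 among them, the same gene was the higher in both libraries.

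**Figure D5:**
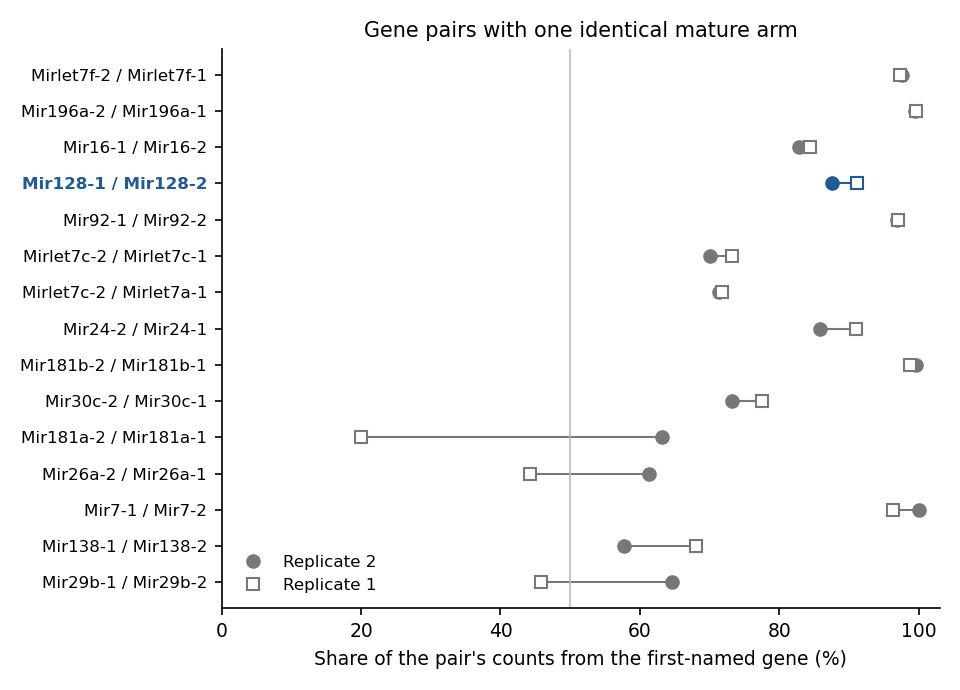
Share of a pair's counts, in percent, from the first-named gene, for the 15 gene pairs with 1 identical mature arm and at least 10 counts in each library, with replicate 2 as filled circles and replicate 1 as open squares. Mir128-1 (blue) gives 87.6% and 91.1% of its pair, and pairs cross the line at 50% where the higher gene differs between libraries.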

How the data were processed

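The authors deposited raw read counts for microRNA genes, in 1 table for each library, on mm10 with the GENCODE M21 annotation, per the text files deposited with them. Which aligner and counter made them is not given in the sources used here. The tables have no header. Of their 3 count columns, the second was read as the strand of the gene, since it held the larger total. Totals for reads unmapped (6.93% in replicate 2, 5.97% in replicate 1), multi-mapping and without a feature (2.48%, 1.62%) stayed out of library sizes.

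All 2202 identifiers matched GENCODE M21, and 968 genes matched a RefSeq hairpin by symbol and place. CPM is of the column total over genes. An exact conditional binomial test was run on the genes with a summed count of at least 10, adjusted by Benjamini-Hochberg at 0.05. Log2 ratios carry a prior count of 0.5, ratios are replicate 2 over replicate 1, and a count of 0 allows up to 3 counts. The test, which allows for counting error only, was checked on simulated data. No result above rests on that check. The counts of the libraries differed by more than sampling noise (chi-square 161 per degree of freedom), so neither was taken as a second copy of the other. That they come from separate animals rests on the labels alone. The assembly is that of C57BL/6J, and how CAST alleles map to it was not analysed here.

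Genes named are the members, the 5 nearest to each in level, the detected genes of 3 lists (brain, muscle, miR-27, the muscle list given in sum) and the 6 pairs with most counts. Members and lists were chosen with earlier results of these data known. Mir216a and the miR-124 genes were named after their values were seen. Software was Python 3.11.15 with scipy 1.17.1 and pandas 2.3.3, with edgeR 4.0.16 and DESeq2 1.42.0 run in R 4.3.3. RNAfold came from ViennaRNA. Alternatives were other scalings (TMM, DESeq2), denominators, strand columns, count minimums and windows, the edgeR exact test and each library left out.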

Additional observations from a re-analysis of the deposited data

How the results depend on the processing

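Over all reads of the table in place of assigned reads, the mean level was 196 CPM for Mir128-1 and 23.9 for Mir128-2. Over a total without Mir378a, Mir126a and Mir143 it was 1867 and 227 CPM. Without regard to strand, where the total over genes is smaller, Mir128-1 had 1688 CPM. The opposite strand gave 0 for both. The libraries taken singly, each with the other left out, gave 1025 to 1339 CPM for Mir128-1, 100 to 189 CPM for Mir128-2 and 7.07 to 10.2 for their ratio. TMM and DESeq2 scaling moved no level by more than the spread between libraries. Both genes stayed higher in replicate 2 and past the threshold with TMM, DESeq2, unstranded counts and all reads, with log2 ratios of 0.29 to 0.39 for Mir128-1 and 0.81 to 0.92 for Mir128-2. In the exact test of edgeR with 1 dispersion for all genes, a test of the members added after seeing the data, neither passed (the dispersion comes from the 2 libraries compared), at log2 ratios of 0.38 and 0.92, and 2 genes were called in place of 126. The other settings of the binomial test called 114 to 126 genes. Windows of 18 and 22 bases left 88.7% and 95.9% of Mir128-1 and 89.8% and 96.4% of Mir128-2 found in no other microRNA gene. The ratio of the loci rests on 2 libraries, with 64 counts of Mir128-2 in replicate 1, and leaves out reads that match both loci.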

Other observations

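In 3 of the 15 gene pairs with 1 identical mature arm the higher gene differed between the libraries. These were picked out after the values had been seen. Mir181a-2 gave 63.2% of its pair with Mir181a-1 in replicate 2 and 20.0% in replicate 1, from 427 and 27 counts of Mir181a-2. Mir26a-2 gave 61.3% and 44.2% of its pair with Mir26a-1, where the replicate 1 share rests on 43 counts. Mir29b-1 gave 64.6% in replicate 2 and 45.8% in replicate 1 over Mir29b-2, on 65 and 24 counts. For these pairs, as for miR-128, reads that match both genes are outside the counts.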
